A study of Mus musculus with 6 samples.

Results

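The genes described here are 45 genes of S phase and DNA replication, taken by exact symbol from the 21448 genes of an RNA-seq table of mouse lymphoma B cells. All 45 symbols were in the table, and all 45 reached the level required for testing, a value averaging 1 or more across the 6 libraries, as did 10533 genes in all. The study compared 3 libraries labelled PRDM15 KO with 3 labelled wild type, all from primary lymphoma B cells of E mu-Myc transgenic mice, a strain in which a Myc transgene drives B cell lymphoma. Per the labels, the cells were kept in culture with IL7, exposed to 50 nM OHT (4-hydroxytamoxifen) to delete Prdm15 or to ethanol over 24 hours, and harvested 3 days later. The labels do not state which libraries received OHT, so the groups rest on the titles and the genotype label. They also do not give the Cre driver, the mouse behind each library or the age of the mice.

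Before a cell copies its DNA, the origin recognition complex, Cdc6 and Cdt1 load the ring of MCM proteins onto origins, a step called licensing. Cdc45 and the GINS complex then turn the ring into an active helicase, primase and the DNA polymerases copy the strands, and PCNA, a sliding clamp set in place by the RFC loader, holds the polymerases on the template. Transcription factors of the E2F family switch on many of these genes as a cell enters S phase, and E-type and A-type cyclins drive the passage with their kinase partner. Myc is known to promote entry into S phase.

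Promoter matches to E2F motifs are shown first, since E2F factors are the known regulators of these genes. RefSeq promoter windows on GRCm38.p6, running from 250 bases before to 50 bases after a transcription start, were found for 35 of the 45 genes, with 42 windows. The motifs TTTCGCGC, TTTGGCGC and TTCCCGCC were searched on both strands, and they can overlap each other. At least 1 of them lay in 19 of the 42 windows (45.2%), against 973 of 32851 windows of all genes (2.96%). By motif, TTTCGCGC was in 19.0% of the 42 windows and 0.323% of all windows. TTTGGCGC was in 19.0% of the 42 and 0.514% of all, and TTCCCGCC in 14.3% and 2.19%. The CCAAT box, searched as CCAAT, was in 59.5% of the 42 windows and 37.4% of all, and the E-box CACGTG, a motif bound by Myc, in 9.52% and 7.15%. The stretches below were chosen because Mcm5 and Mcm6 carry the same motif pair, because Pola1 is a polymerase gene with a match before its start, and because E2f2 had the smallest p among the 45 genes. Capitals mark the E2F motif matches. The Mcm5 stretch (chr8:75109349-75109508, plus strand), the Mcm6 stretch (chr1:128359706-128359865, minus strand) and the Pola1 stretch (chrX:93632156-93632315, minus strand) each hold the 160 bases before the start. The E2f2 stretch (chr4:136172294-136172323, plus strand) holds 30 of the 50 bases after the start.
Mcm5: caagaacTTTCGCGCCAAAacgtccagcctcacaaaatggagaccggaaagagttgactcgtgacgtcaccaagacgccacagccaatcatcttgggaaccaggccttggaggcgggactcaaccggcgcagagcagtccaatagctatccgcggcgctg
Mcm6: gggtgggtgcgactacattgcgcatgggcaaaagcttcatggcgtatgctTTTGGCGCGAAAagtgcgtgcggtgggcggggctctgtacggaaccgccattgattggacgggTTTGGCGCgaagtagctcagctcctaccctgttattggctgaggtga
Pola1: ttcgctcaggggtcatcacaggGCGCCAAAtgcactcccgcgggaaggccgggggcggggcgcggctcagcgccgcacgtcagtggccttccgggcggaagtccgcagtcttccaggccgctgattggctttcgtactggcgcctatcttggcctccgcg
E2f2: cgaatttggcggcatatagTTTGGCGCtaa
In Mcm5 a match to TTTCGCGC and a reverse-strand match to TTTGGCGC overlapped in TTTCGCGCCAAA, and Mcm6 held the reverse complement of that run, TTTGGCGCGAAA. Of all 32851 windows, 4 held this run on either strand (0.0122%). A match describes letters in the window and does not show binding.

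The libraries held 28852951 to 47255421 reads assigned to genes, and each of the 45 genes had at least 823 reads in each library. Values are in RPM, reads scaled to a library of fixed size by means of each library's effective size, and are not divided by gene length, so levels are compared between libraries and not between genes. Prdm15 itself was at RPM values of 40.2, 40.9 and 39.2 in PRDM15 KO replicates 1, 2 and 3 and at 29.2, 47.3 and 41.3 in wild type replicates 1, 2 and 3. The table gives 1 value per gene and none per exon, so the level of Prdm15 is no check of the deletion or of the labels. All 12 B cell markers had reads and 11 reached the level required for testing. Their summed levels were 1808 to 2376 in PRDM15 KO and 1829.7 to 2409.8 in wild type libraries. In pairs 1, 2 and 3, 8, 7 and 3 of the 12 were higher in PRDM15 KO. Cd22, Pax5 and Vpreb1 were lower and Rag1 and Rag2 higher in each pair. Cd22 was at 62.7, 39.3 and 24.6 in PRDM15 KO replicates 1, 2 and 3 and at 98.7, 125 and 56.2 in wild type. The 20 macrophage and myeloid markers, none of them at 0, summed to 309, 2669.8 and 1489.6 in PRDM15 KO replicates 1, 2 and 3, against 337 to 384 in wild type libraries. Of them, 7, 19 and 19 were higher in the PRDM15 KO library of pairs 1, 2 and 3.

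The replication genes differed little between the PRDM15 KO and the wild type libraries, and no difference passed the test. Summed over the 45 genes, the level was 9077, 9288 and 9769 RPM in PRDM15 KO replicates 1, 2 and 3 and 8998, 9772 and 9819 in wild type replicates 1, 2 and 3, so the groups overlapped. The summed level averaged 9378 ± 355 in PRDM15 KO and 9529.8 ± 461 in wild type libraries (SD, n = 3 each). As a share of all reads the 45 genes took 0.956% ± 0.0396 in PRDM15 KO and 0.935% ± 0.0540 in wild type libraries, so the direction of the small difference turned with the scaling. In bulk samples a difference in the share of cells in S phase and one in RNA per cell cannot be told apart. With limma on log2(value + 1), 0 of the 45 genes passed an adjusted p of 0.05 (Benjamini-Hochberg over all tested genes), and 1, E2f2, had an unadjusted p under 0.05. Over all tested genes 1 passed, or 0.00949%, and 428 (4.06%) had an unadjusted p under 0.05. The median log2 difference, PRDM15 KO minus wild type, was -0.020 over the 45 genes and -0.028 over all tested genes, with 20 replication genes above 0 and 25 below. Without PRDM15 KO replicates 2 and 3, the libraries with more myeloid transcripts, the median was -0.021 over the 45 genes and -0.11 over all tested genes. That fit sets 1 library against 3 and passed 0 genes in all, so it gives a value and no test of the 45.

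Libraries with the same replicate number resembled each other, so a further fit took the replicate number as a block. In that fit 0 of the 45 genes passed and 7 had an unadjusted p under 0.05, where over all tested genes 92 passed (0.873%) and 2213 had an unadjusted p under 0.05 (21.0%). Recovered reads were tested with count models as well. With edgeR's quasi-likelihood test 0 of the 45 passed without and with the block (2 and 5 at an unadjusted p under 0.05), where 0% and 0.37% of all tested genes passed (582 and 2174 genes at an unadjusted p under 0.05). DESeq2 passed 0 of the 45 without the block (3 at an unadjusted p under 0.05), against 1.04% of all tested genes. With the block DESeq2 passed 3 of the 45, which is 6.67% of them and near the 7.01% of all tested genes that it passed. E2f2 and Prim2 were lower (3.99% of all tested genes passed as lower) and Hells was higher (3.02% passed as higher). In the limma fit with the block but without both libraries of replicate 1, 2 of the 45 passed, E2f2 and Pole2, both lower, against 7.97% of all tested genes, 3.36% being lower.

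The intervals bound how large a difference these libraries leave possible. Without the block the 95% interval of the log2 difference lay within ±0.5 for 33 of the 45 genes and within ±1 for all 45, and with the block for 43 and 45. Over all tested genes the intervals without the block lay within ±0.5 for 41.6% and within ±1 for 79.5%. The lowest bound without the block was -0.90, for Prim2, and the highest was 0.76, for Hells. Intervals of single genes in the text below are those without the block unless stated. Of the 45 genes, 39 (86.7%) differed by less than 0.2 on the log2 scale between the group means, as did 71.7% of all tested genes. The tested genes reached down to a mean value of 1, below the level of each of the 45.

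**Figure D1:**
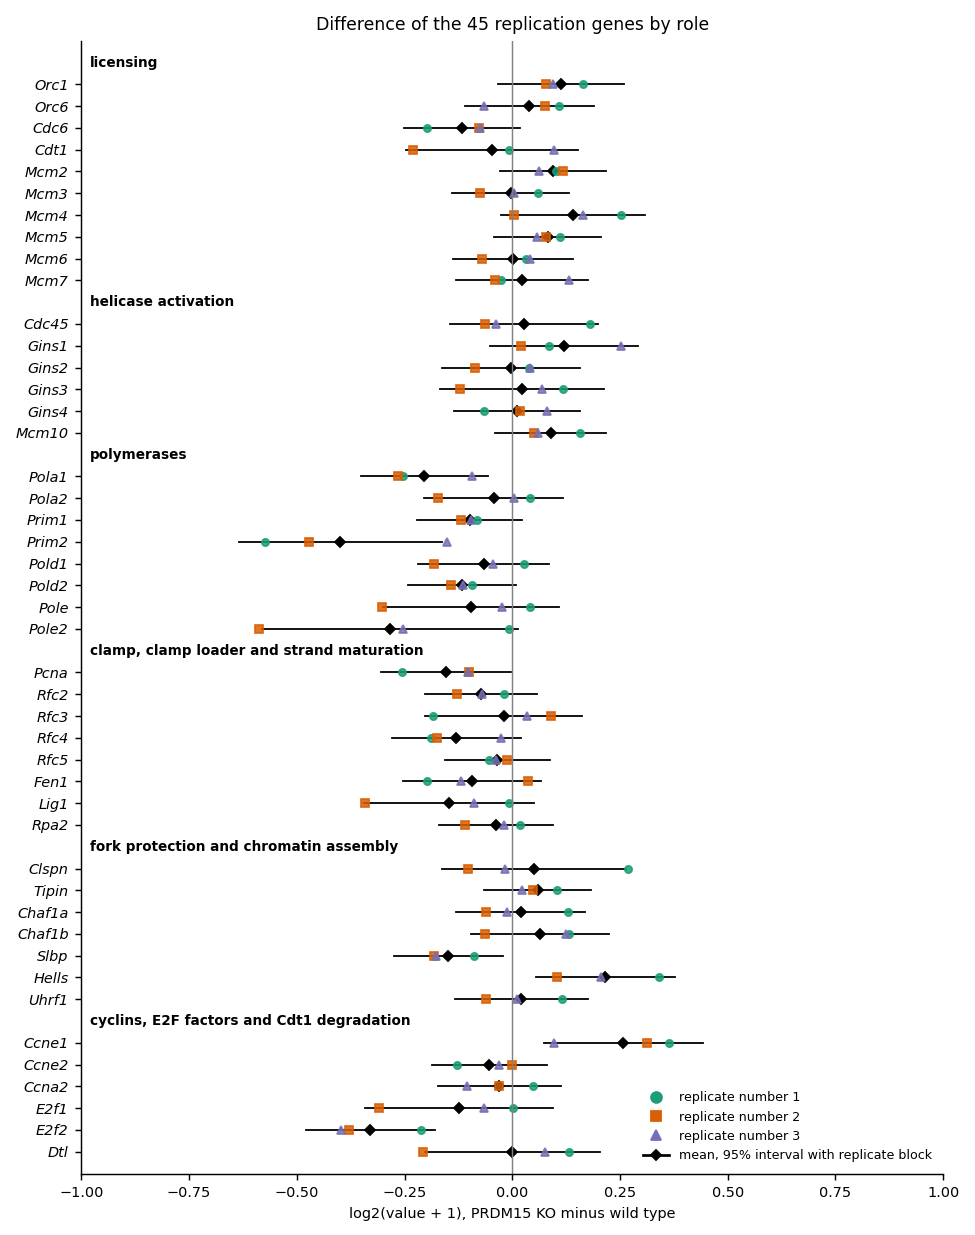
Difference in log2(value + 1), PRDM15 KO minus wild type (horizontal axis), for the 45 genes grouped by role. Coloured symbols are the differences between same-numbered libraries, black diamonds the mean and black lines the 95% interval of the blocked limma fit. The means lie between -0.40 (Prim2) and 0.26 (Ccne1), and 0 of 45 genes passed at an adjusted p of 0.05.

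Among licensing genes, Mcm3, Mcm6 and Mcm7 had the smallest differences. They encode subunits of the MCM ring that becomes the replicative helicase. Mcm6 was at 636, 669.9 and 631 RPM in PRDM15 KO replicates 1, 2 and 3 and at 622, 703 and 613 in the wild type libraries (log2 difference 0.0013, 95% interval -0.21 to 0.21). Mcm3 was at 389, 362 and 407 in PRDM15 KO and at 373, 382 and 406 in wild type (-0.0040, -0.20 to 0.19). Mcm7 was at 568, 559 and 594 in PRDM15 KO and at 578, 575 and 542 in wild type (0.022, -0.16 to 0.20). In all 3 the groups overlapped and the order within pairs was mixed. Under equal totals, quantile normalization and the count models the sign of Mcm3 turned.

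Mcm2, Mcm4 and Mcm5 were higher in PRDM15 KO in all 3 pairs, by small amounts that did not pass. Mcm2 was at 384, 426 and 427 in PRDM15 KO and at 358, 392 and 408 in wild type, a log2 difference of 0.09. Mcm4 was at 444, 404 and 471 in PRDM15 KO and at 372, 402 and 419.9 in wild type, a log2 difference of 0.14. Mcm5 was at 443, 445 and 443 in PRDM15 KO and at 411, 421 and 425 in wild type, and its groups did not overlap. Its log2 difference of 0.08 (95% interval -0.08 to 0.25) gave an exact two-sided permutation p of 0.1, the smallest possible with 3 against 3 libraries, and a limma adjusted p of 0.9998 (0.381 with the block). Groups that do not overlap occurred in 3 of the 45 genes, Mcm5, Ccne1 and E2f2, against 9.5% of all tested genes. Of all tested genes, 6.29% lay lower without overlap, as did E2f2, and 3.21% higher, as did Mcm5 and Ccne1.

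The other licensing genes showed more spread between replicate numbers than between groups. Cdt1, the loading factor destroyed in S phase, was at 88.2, 52.9 and 63.5 in PRDM15 KO and at 88.8, 62.2 and 59.3 in wild type. Its replicate 1 libraries were thus the highest in both groups. Cdc6, the loading ATPase, was at 159.8, 125 and 143 in PRDM15 KO and at 183, 132 and 150.3 in wild type, lower in all 3 pairs without passing (adjusted p = 0.279 with the block, limma). Orc1 and Orc6, subunits of the origin recognition complex, had log2 differences of 0.11 and 0.04.

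The 6 genes of helicase activation lay between -0.0027 and 0.12 on the log2 scale. Gins1 (0.12) and Mcm10 (0.09), which helps start unwinding, were higher in all 3 pairs, and Cdc45 (0.03), Gins2, Gins3 (0.02) and Gins4 (0.01) were mixed. Gins2 was at 33.9, 32.2 and 44.6 in PRDM15 KO and at 33.0, 34.2 and 43.3 in wild type, so replicate 3 was the highest in both groups. None of the 6 passed in the fits or alternatives run.

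Polymerase and primase genes were on the low side in PRDM15 KO, with all 8 log2 differences below 0 and a median of -0.11, but none passed in the limma or edgeR fits with all 6 libraries. The tested genes as a whole had 6008 of 10533 below 0, a median of -0.028 and a lower quartile of -0.14. In pairs 1, 2 and 3, 5, 8 and 7 of the 8 were below 0. Without wild type replicate 2, 6 of the 8 were below 0, as were 6 without PRDM15 KO replicates 2 and 3 (medians -0.10 and -0.13). With equal totals 7 of the 8 were below 0, Pola2 turning, and the median was -0.053. Prim2, the large primase subunit, was at 84.2, 61.9 and 96.1 in PRDM15 KO and at 126, 86.2 and 107 in wild type. It was lower in each pair, while the groups overlapped, with a log2 difference of -0.40 (95% interval -0.90 to 0.10 without the block). Prim2 had a limma adjusted p of 0.135 with the block. DESeq2 with the block passed it (adjusted p = 0.0206) and edgeR with the block did not (0.157). Its log2 difference was -0.22 without PRDM15 KO replicate 2.

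Pole2, a subunit of the leading-strand polymerase epsilon, was at 49.7, 52.8 and 55.9 in PRDM15 KO and at 50.0, 79.96 and 66.8 in wild type. The replicate 1 libraries were alike and the difference lay in replicates 2 and 3 (log2 difference -0.28; within pairs -0.0089, -0.59 and -0.25). Its limma adjusted p with the block was 0.251, and 0.0428 without the libraries of replicate 1. Without wild type replicate 2 its log2 difference was -0.13.

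Pola1, the catalytic subunit of the polymerase that extends primers, was at 250.5, 280.1 and 234 in PRDM15 KO and at 299, 337 and 249 in wild type. It was lower in all 3 pairs, with overlapping groups and a log2 difference of -0.20. The 95% interval ran from -0.53 to 0.12 without the block and from -0.35 to -0.057 with it. The limma adjusted p of Pola1 with the block was 0.162. The small primase subunit Prim1 was at 113, 104 and 104 in PRDM15 KO and at 119.9, 113 and 112 in wild type, a log2 difference of -0.10. Pold2, a subunit of the lagging-strand polymerase delta, was at 94.3, 86.9 and 78.7 in PRDM15 KO and at 101, 96.0 and 85.3 in wild type, a log2 difference of -0.12. Both were lower in all 3 pairs without passing. Pold1 (-0.07), Pole (-0.10) and Pola2 (-0.04) were mixed between pairs.

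Genes of the clamp, its loader and strand maturation also had all 8 log2 differences below 0, with a median of -0.08, and none passed. For single genes the lower quartile was -0.14 over all tested genes and -0.099 over the 45 genes, which is no measure for a median of 8 genes. In pairs 1, 2 and 3, 7, 6 and 7 of the 8 were below 0, and with equal totals 5 of the 8. Pcna, the clamp, was at 552, 666 and 585 in PRDM15 KO and at 659, 714 and 629 in wild type. It was lower in each pair with overlapping groups (log2 difference -0.15, 95% interval -0.40 to 0.10 without the block). Its limma adjusted p was 0.235 with the block. Lig1, the ligase that seals the lagging strand, was at 176, 172 and 161 in PRDM15 KO and at 177, 219 and 171 in wild type (log2 difference -0.15), a gap that came largely from wild type replicate 2. The loader subunits Rfc2, Rfc3, Rfc4 and Rfc5, the flap nuclease Fen1 and Rpa2, which coats single strands, lay between -0.13 and -0.020.

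Genes of fork protection and chromatin assembly were mixed. Slbp, which binds the stem-loop at the end of histone mRNAs, was at 187, 199 and 203 in PRDM15 KO and at 199, 225 and 229.7 in wild type. It was lower in each pair, with overlapping groups and a log2 difference of -0.15 (95% interval -0.36 to 0.07 without the block). Its limma adjusted p was 0.20 with the block. Hells, a chromatin remodeller linked to DNA methylation, was at 285, 391 and 397 in PRDM15 KO and at 225, 364 and 344 in wild type, higher in each pair (log2 difference 0.22). Its 95% interval ran from -0.33 to 0.76 without the block and from 0.05 to 0.38 with it, and the limma adjusted p with the block was 0.170. DESeq2 with the block passed Hells (adjusted p = 0.0414) and edgeR with the block did not (0.176). Its log2 difference was 0.15 to 0.27 with both libraries of a replicate number left out. With pairs broken it was 2.6e-05 without wild type replicate 1 and -0.093 without PRDM15 KO replicates 2 and 3. Uhrf1 (0.02), which guides maintenance DNA methylation, the fork proteins Clspn (0.05) and Tipin (0.06), and the histone chaperone subunits Chaf1a (0.02) and Chaf1b (0.06) did not pass.

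E2f2 had the smallest p of the 45 genes in the limma fits without and with the block. This E2F family member was at 219.8, 214 and 237 in PRDM15 KO replicates 1, 2 and 3 and at 255, 279 and 312 in wild type replicates 1, 2 and 3. Every PRDM15 KO library was below every wild type library. The level averaged 224 ± 11.8 in PRDM15 KO and 282 ± 28.8 in wild type (SD, n = 3 each), a log2 difference of -0.33 with a 95% interval of -0.57 to -0.09. The limma adjusted p was 0.9998 (unadjusted 0.0158) and 0.0877 with the block, and the exact two-sided permutation p was 0.1. DESeq2 with the block passed E2f2 (adjusted p = 0.00201), edgeR with the block did not (0.133), and limma with the block passed it without the libraries of replicate 1 (0.0118). Without PRDM15 KO replicates 2 and 3 its log2 difference was -0.35.

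Ccne1 was the gene with the largest positive difference. It encodes cyclin E1, the partner of the kinase that opens S phase, and was at 61.4, 69.6 and 55.9 in PRDM15 KO and at 47.5, 55.8 and 52.3 in wild type. The groups did not overlap, though PRDM15 KO replicate 3 and wild type replicate 2 were close to each other. Its level averaged 62.3 ± 6.89 in PRDM15 KO and 51.9 ± 4.16 in wild type (SD, n = 3 each). The log2 difference was 0.26, with a 95% interval of -0.03 to 0.54 without the block. The limma adjusted p was 0.162 with the block, and the exact two-sided permutation p was 0.1.

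The related cyclins and E2f1 showed no such gap. Ccne2, cyclin E2, was at 119.8, 155 and 163 in PRDM15 KO and at 131, 155 and 167 in wild type (log2 difference -0.05). Ccna2, cyclin A2, which acts through S phase and into G2, was at 415, 453 and 585 in PRDM15 KO and at 401, 463 and 629 in wild type (-0.03). E2f1 was at 30.8, 20.7 and 28.1 in PRDM15 KO and at 30.7, 25.8 and 29.4 in wild type (-0.12). With equal totals the signs of Ccne2 and Ccna2 turned. Dtl, which directs destruction of Cdt1, differed by 0.00019 on the log2 scale.

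**Figure D2:**
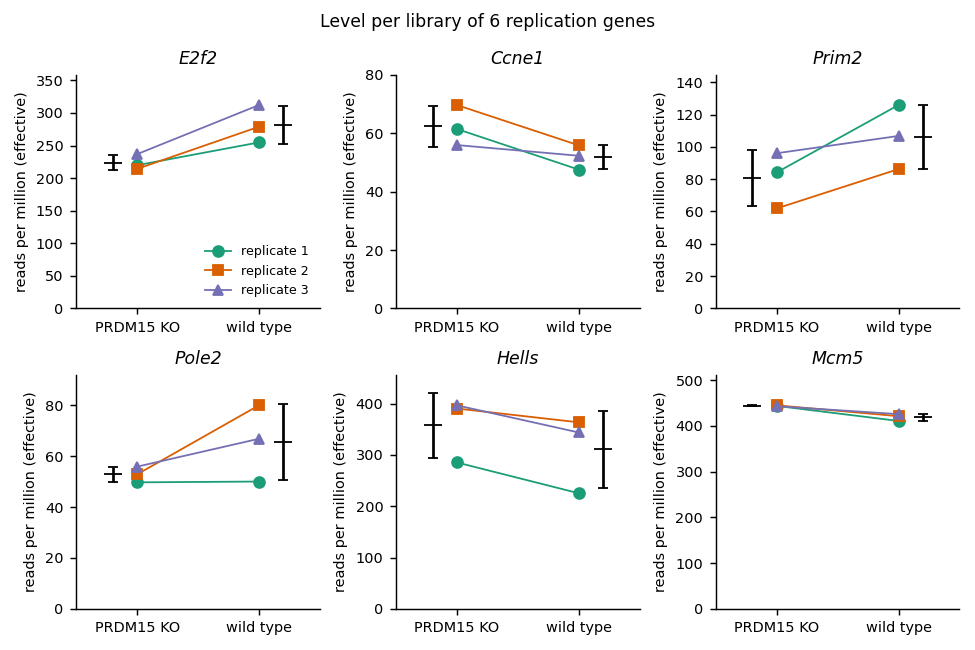
Level in RPM (vertical axes from 0) of E2f2, Ccne1, Prim2, Pole2, Hells and Mcm5 in each PRDM15 KO library (left) and wild type library (right), with lines between same-numbered libraries; black marks give the mean with its SD (n = 3). E2f2 lay between 214 and 237 in PRDM15 KO and between 255 and 312 in wild type, while the groups of Prim2, Pole2 and Hells overlapped.

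Replicate number accounted for most of the spread of these genes. Of the sum of squares of log2(value + 1) over the 6 libraries, the replicate number held a median of 79.3% over the 45 genes and the group 7.57%, against 74.5% and 9.56% over all tested genes. The replicate share was the larger in 39 of the 45 genes and in 8753 of the 10533 tested genes. The replicate number has 3 levels and the group 2, which by itself favours the replicate share. Chaf1a, the large subunit of the chromatin assembly factor, was at 101, 121 and 165 in PRDM15 KO replicates 1, 2 and 3 and at 92.3, 126 and 166 in wild type replicates 1, 2 and 3. Its replicate share was 98.3% and its group share 0.0898%. Ccna2 had a replicate share of 97.9%, Gins2 of 97.4% and Rfc2 of 96.7%. Mcm5, with 5.93%, E2f2, with 20.1%, and Ccne1, with 31.4%, were among the 6 genes in which the group share was larger, with Mcm4, Mcm7 and Slbp. The 45 genes did not move as a block between replicate numbers, since Cdt1, Rfc3 and Orc6 were highest in replicate 1 of both groups and Chaf1a, Ccna2 and Rfc2 lowest there. Deviations from the group means correlated across the 45 genes at 0.85, 0.79 and 0.88 for the same-numbered libraries of replicates 1, 2 and 3, a description over genes that share libraries.

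**Figure D3:**
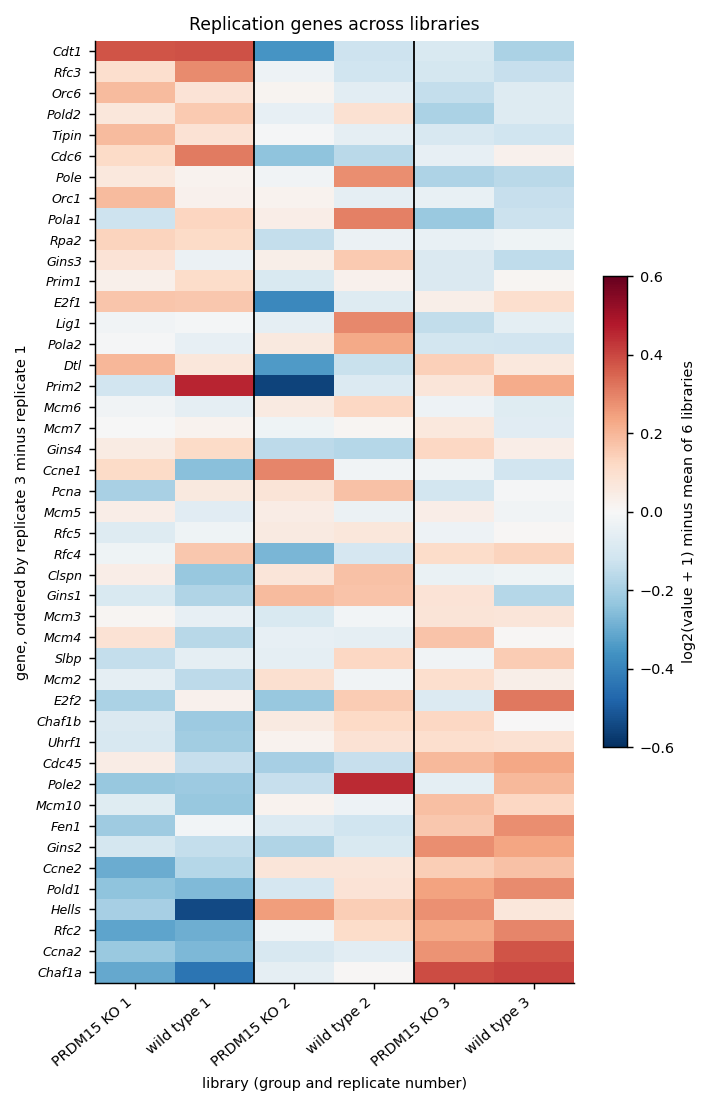
Level of each of the 45 genes (rows, ordered by replicate 3 minus replicate 1) in the 6 libraries (columns, PRDM15 KO left of wild type within each replicate number), as log2(value + 1) minus the mean of the gene over the 6 libraries. Columns of the same replicate number resemble each other, as in Chaf1a and Cdt1 at the ends of the order.

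Within pairs, the median log2 difference of the 45 genes was 0.03, -0.08 and -0.02 in pairs 1, 2 and 3, against -0.05, -0.0016 and -0.04 over all tested genes. Of the 45 genes, 14 were lower in all 3 pairs, a share near the 29.9% of all tested genes. Of these 14, 5 were polymerase or primase genes (Pola1, Prim1, Prim2, Pold2 and Pole2). Another 5 belonged to the clamp, loader and maturation group (Pcna, Rfc2, Rfc4, Rfc5 and Lig1). The rest were 1 licensing gene, 1 of fork protection and chromatin assembly and 2 of the cyclins and E2F factors. The split by role was not tested. Another 9 of the 45 were higher in all 3 pairs, against 16.7%, namely Orc1, Mcm2, Mcm4, Mcm5, Gins1, Mcm10, Tipin, Hells and Ccne1. The pairs share no library, and the differences of the 45 genes correlated between them at 0.51 (pairs 1 and 2), 0.59 (1 and 3) and 0.62 (2 and 3), and at 0.18, 0.19 and 0.80 over all tested genes. In these pairings 26, 32 and 33 of the 45 genes had like signs (57.8%, 71.1% and 73.3%), against 60.4%, 65.3% and 67.6% of all tested genes, and both are descriptions over genes of the same libraries. Genes with an E2F motif match in a promoter window had a median log2 difference of -0.012 (n = 18), and those with a window and no match of -0.035 (n = 17).

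Replication factors outside the 45 genes did not pass in limma either. Of 38 further factors, 0 passed in the limma fits without and with the block. In these fits 1 and 8 had an unadjusted p under 0.05, against 4.06% and 21.0% of all tested genes. The median log2 difference of the 38 was -0.026 and turned to 0.029 with equal totals. The 3 with the smallest p in the block fit were Orc2, an origin recognition subunit, at 176, 179 and 176 in PRDM15 KO and at 152, 147 and 156 in wild type, the DNA topoisomerase Top1 (log2 difference 0.22) and Top2a (-0.24). DESeq2 with the block passed these 3 of the 38 (7.89%, against 7.01% of all tested genes) and edgeR with the block none. Of 27 regulators of S phase entry and checkpoint kinases, 0 passed in the limma fits (0 and 2 at an unadjusted p under 0.05) or with edgeR or DESeq2. Their median log2 difference was -0.037. In the limma fit with the block the smallest p belonged to Wee1 (-0.24) and Cdk1 (-0.14), kinases of the G2 to mitosis step, and the checkpoint protein Atrip (-0.18).

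Tk1, a thymidine kinase that salvages thymidine for DNA synthesis, differed far more than any of the 45 genes. It was at 26.2, 33.4 and 16.9 in PRDM15 KO and at 60.8, 64.7 and 41.5 in wild type, with no overlap and a lower level in each pair. Tk1 averaged 25.5 ± 8.32 in PRDM15 KO and 55.7 ± 12.4 in wild type (SD, n = 3 each), a log2 difference of -1.12. It fell in the limma fit with the block (adjusted p = 0.0255, against 0.884 without the block) and passed with edgeR and the block (0.0269). In limma with the block it lost the call when the libraries of replicate 2 or of replicate 3 were left out (0.109 and 0.155). Block fits with a pair left out rest on 2 pairs and passed 0 to 840 genes in all, so a lost call there says little about a single gene. Without PRDM15 KO replicates 2 and 3 the log2 difference of Tk1 was -1.03. In the limma fit with the block it was the single gene of 13 for nucleotide supply to pass, and the 13 had a median log2 difference of 0.03. Samhd1, which breaks down deoxynucleotides (log2 difference 0.31), did not pass in limma, though it passed with DESeq2 and the block (adjusted p = 0.0302).

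Genes of the histone clusters had lower values in PRDM15 KO, and some of them passed. Of 49 tested genes with symbols of the Hist clusters, many of them made in S phase, 0 passed in limma without the block. In that fit 21 had an unadjusted p under 0.05, against 4.06% of all tested genes. Without the block 0 passed by edgeR and 9 by DESeq2, against 0% and 1.04% of all tested genes. With the block 12 fell, where 0.873% of all tested genes passed. None of the 49 passed when the libraries of replicate 2 or of replicate 3 were left out. Block fits with a pair left out rest on 2 pairs and passed 0 to 840 genes in all. Without those of replicate 1, 35 passed, where 7.97% of all tested genes did. With the block, edgeR passed 3 of the 49, Hist1h4n, Hist1h4m and Hist1h2ab, all among the 12, and DESeq2 passed 41, against 0.37% and 7.01% of all tested genes. The median log2 difference was -0.41, and 48 of the 49 were lower in all 3 pairs, against 29.9% of all tested genes. With both libraries of a replicate number left out the median was -0.37 to -0.44. With unpaired libraries left out it was -0.27 without PRDM15 KO replicate 1 and -0.74 without PRDM15 KO replicates 2 and 3. Hist1h4n was at 105, 108 and 111 in PRDM15 KO and at 154, 152 and 164 in wild type (log2 difference -0.53, adjusted p = 0.0313 with the block, limma). The other 11 that fell, Hist1h2ab, Hist1h2ad, Hist1h2ak, Hist1h2bb, Hist1h2bk, Hist1h3a, Hist1h3c, Hist1h4c, Hist1h4f, Hist1h4j and Hist1h4m, had log2 differences between -0.70 and -0.43. Reads of near-identical histone genes could be split between them, which leaves the value of a single gene uncertain. The 30 mitosis genes had a median of -0.11, and 0 passed in the limma fits or with edgeR. In the limma fits without and with the block, 1 and 10 had an unadjusted p under 0.05, against 4.06% and 21.0% of all tested genes. With DESeq2 and the block 2 passed (6.67%, against 7.01% of all tested genes). Nusap1 (-0.36), Tpx2 (-0.18) and Kif4 (-0.21) had the smallest p in the limma fit with the block. Of the 30, 20 were lower and 0 higher in all 3 pairs, against 29.9% and 16.7% of all tested genes, and the median was -0.13, -0.09 and -0.10 without both libraries of replicate 1, 2 and 3. Leaving out a single library, which breaks a pair, gave a mitosis median of 0.0010 without wild type replicate 3 and -0.24 without wild type replicate 1. No test was made of the difference between these lists and the 45 genes.

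**Figure D4:**
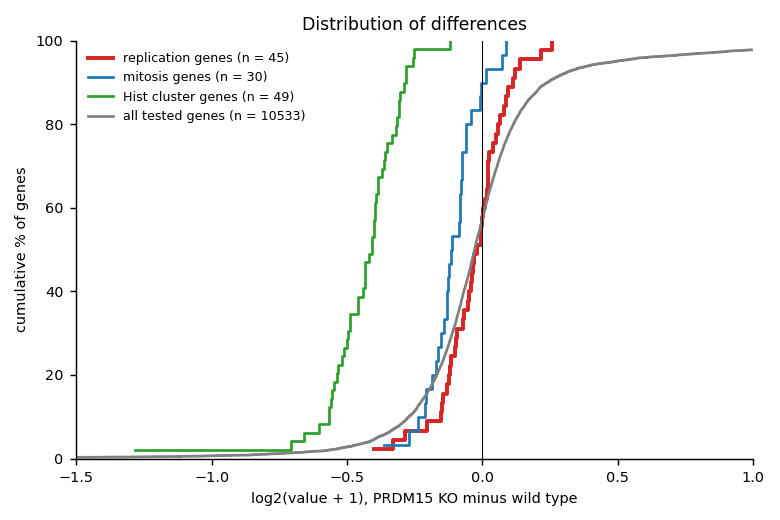
Cumulative share of genes (vertical axis, percent) by log2(value + 1) difference, PRDM15 KO minus wild type (horizontal axis), for the 45 replication genes, 30 mitosis genes, 49 genes of the Hist clusters and all 10533 tested genes. The curve of the replication genes crosses 50% near that of all tested genes (medians -0.020 and -0.028) and is steeper, and the Hist genes lie to the left (median -0.41).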

How the data were processed

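RNA of 6 libraries was profiled, 3 per group. Per the submitters' processing notes, the tools were HTSeq, STAR 2.4.2a, CASAVA and edgeR, and the build was mm9. The libraries were directional, per the labels; annotation and strand setting of the counting were not stated. The authors deposited a normalized signal, in which a gene's reads are scaled by an effective library size (0.970 to 1.04 times the library's total). The deposited table calls them FPKM, but each value is a whole multiple of a step shared by all genes of a library (100% of values, tolerance 0.01 reads), so no gene length enters and whole reads were recovered. Genes with a mean of at least 1 were tested with limma 3.58.1 (R 4.3.3) on log2(value + 1), trended, two-sided, with Benjamini-Hochberg adjustment over 10533 genes. This scale understates differences of genes with low values. A gene is said to have fallen where a limma adjusted p was under 0.05. Alternatives were a replicate block, pseudocounts of 0.1 and 5, other filters, equal totals, quantile normalization, edgeR 4.0.16, DESeq2 1.42.0 and left-out libraries. The fits were also run on simulated data with a replicate effect built in, which does not measure their error rates in these libraries.

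The labels do not say that equal replicate numbers share a mouse. Deviations from group means correlated at 0.73, 0.73 and 0.84 between same-numbered libraries, so the numbers were taken as pairs. Replicate libraries differed beyond counting noise (chi-square at least 68.1 times its degrees of freedom), so all were counted. The design text calls them biological replicates, and p-values of the fits without the block measure the spread between them. With the block, p-values measure the scatter of the differences within pairs, a pairing that the labels do not state. Full values are given for members past the threshold, the 10 with the smallest p in either limma fit, and 13 named by role, and for up to 3 members of each other list plus those that passed. Cdt1, Gins2 and Chaf1a were given in full after their values were seen. Members and lists were chosen with earlier results of these data known. Promoter sequences come from RefSeq on GRCm38.p6, matched by symbol, not from the authors' build. Plots used matplotlib 3.10.9.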

Additional observations from a re-analysis of the deposited data

How the results depend on the processing

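The count of replication genes that passed was 0 in every alternative run except DESeq2 with the replicate block (3) and the limma block fits without a pair, where it was 0 to 2. The median of the 45 genes was 0.035 with equal totals, against 0.024 over all tested genes. With a library left out it ranged from -0.052 to 0.015, and with a pair left out from -0.041 to 0.021. It moved by less than the spread between pairs (SD 0.053) in the other alternatives, though its sign turned with quantile normalization and with both blocked count models. Over all tested genes 1 passed, against 92 with the replicate block, 39 with edgeR and the block, 110 with DESeq2 and 738 with DESeq2 and the block. The count was 0 with edgeR, a pseudocount of 0.1 or 5, no filter, a mean of at least 10, quantile normalization, without PRDM15 KO replicates 2 and 3 and in every fit with a library left out, and 0 to 840 in the block fits with a pair left out. The fit with PRDM15 KO replicate 1 alone takes that library to vary as the wild type libraries do. The causes were not tested.

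The sign of the log2 difference turned in at least 1 alternative for 32 of the 45 genes and in none of those run for the other 13. With equal totals the turned values were Cdt1 0.0072, Mcm3 0.051, Gins2 0.051, Pola2 0.012, Rfc3 0.035, Rfc5 0.020, Rpa2 0.017, Ccne2 0.0016, Ccna2 0.026. With quantile normalization they were Mcm3 0.0050, Gins2 0.032, Rfc3 0.0080. The count models gave Mcm3 0.024, Gins2 0.028 (edgeR), Mcm3 0.021, Gins2 0.022, Rfc3 0.0045 (edgeR with the block), Mcm3 0.024, Gins2 0.028 (DESeq2) and Mcm3 0.020, Gins2 0.022, Rfc3 0.0041 (DESeq2 with the block). Without PRDM15 KO replicates 2 and 3 they were Cdc6 0.055, Cdt1 0.35, Mcm2 -0.0052, Mcm3 0.0086, Mcm6 -0.021, Gins1 -0.033, Mcm10 -0.026, Pold2 0.0081, Pole 0.016, Rfc3 0.092, Rpa2 0.11, Chaf1a -0.30, Chaf1b -0.053, Hells -0.093, Uhrf1 -0.083, E2f1 0.10. With a library or a pair left out the ranges were Orc6 -0.045 to 0.12, Cdc6 -0.23 to 0.0094, Cdt1 -0.25 to 0.13, Mcm3 -0.043 to 0.041, Mcm6 -0.035 to 0.063, Mcm7 -0.033 to 0.053, Cdc45 -0.065 to 0.15, Gins2 -0.14 to 0.12, Gins3 -0.049 to 0.11, Gins4 -0.073 to 0.092, Mcm10 -0.0028 to 0.17, Pola2 -0.11 to 0.061, Pold1 -0.22 to 0.060, Pole -0.20 to 0.021, Rfc2 -0.24 to 0.066, Rfc3 -0.094 to 0.12, Fen1 -0.20 to 0.023, Rpa2 -0.11 to 0.025, Clspn -0.060 to 0.15, Tipin -0.022 to 0.12, Chaf1a -0.20 to 0.23, Chaf1b -0.028 to 0.14, Uhrf1 -0.078 to 0.073, Ccne2 -0.15 to 0.082, Ccna2 -0.17 to 0.15, E2f1 -0.24 to 0.039, Dtl -0.10 to 0.17. Each of the 45 genes had 823 or more reads per library. The median standard error of their log2 differences was 0.059 with the replicate block and 0.12 without it.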
